A study of Mus musculus with 8 samples.

Results

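The genes described are the nuclear-encoded genes of oxidative phosphorylation in Lewis lung carcinoma tumors of mice. They were taken from a table of RNA sequencing values by their symbols. Those starting with Nduf, Uqcr, Atp5, Cox4, Cox5, Cox6, Cox7 or Cox8 were kept, with Sdha, Sdhb, Sdhc, Sdhd and Cycs. This gave 93 genes of the 23952 gene symbols in the table. Where a symbol had several transcripts, as 10 did, its transcript of highest mean RPKM was kept.

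Oxidative phosphorylation takes place in the inner membrane of mitochondria. Complexes I and II pass electrons from NADH and succinate to coenzyme Q, complex III passes them on to cytochrome c, and complex IV (cytochrome c oxidase) hands them to oxygen. Complexes I, III and IV pump protons, and complex V (ATP synthase) lets the protons flow back to make ATP. Most subunits are encoded in the nucleus and are used by almost all cells, while a few subunits of complex IV exist in isoforms that are typical of muscle, lung, testis or cells short of oxygen. The 93 genes fell into 36 subunits of complex I, 4 of complex II, 8 of complex III, 20 of complex IV (12 general and 8 restricted isoforms), 15 of complex V, cytochrome c and 9 assembly factors or related proteins. The subunits encoded in mitochondrial DNA were not analysed here.

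All 8 libraries came from tumors grown under the skin of Col1a1-GFP transgenic mice from Lewis lung carcinoma cells, an established line of a mouse lung tumor. These mice make green fluorescent protein along with Col1a1, a collagen gene of fibroblasts. The tumor cells had been transfected with a vector for the red protein dTomato and sorted for it. Collagen labelled with an Alexa dye was injected into the tumors 24 h before the cells were sorted, and 200 ng of RNA per library was read at 50 bp after poly-dT cDNA synthesis. There were 4 groups of 2 libraries. Total tumor was the whole tumor, LLC the dTomato+ cells, and Fibroblast the GFP+ cells. TAM were tumor-associated macrophages of the M2 kind per the labels, sorted as F4/80+ cells that had collagen and neither dTomato nor GFP. The labels used here state neither the age nor the sex of the mice, nor if separate animals gave the 2 libraries of a group. The p-values therefore measure only the spread between these libraries.

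Values are RPKM, reads per kilobase of transcript scaled to the reads of the library, as the authors deposited them. The estimated depth was 4.28 to 10.37 M reads, with the library numbered 1 deeper than that numbered 2 in each group. The 7 macrophage markers in the table summed to 13043 and 9612 RPKM in TAM, against 52.1 to 307.2 in LLC and Fibroblast. The 7 fibroblast markers summed to 24137 and 22658 RPKM in Fibroblast, but also to 3720 and 4953 in LLC and to 129.0 and 644.5 in TAM. Most of the LLC sum was Col3a1, at 2507.4 and 3141.5 RPKM, and the markers differed. Lum had 434.0 and 422.4 RPKM in LLC against 617.5 and 666.2 in Fibroblast, but Col1a1 76.2 and 191.6 against 5314.5 and 4200.4. In Total tumor the macrophage sum was 784.7 in library 1 and 2649 in library 2. Total tumor 2 stood apart from the other libraries in the members too, as given below. The call counts and medians of the members against Total tumor are therefore given with and without it.

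The members together made up 1.33 and 2.24% of the summed RPKM in Total tumor, 1.63 and 1.29% in LLC, 0.883 and 0.805% in Fibroblast and 1.26 and 1.11% in TAM. Both Fibroblast libraries lay below the other 6. The median member stood at 36.4 and 34.1 RPKM in Fibroblast, 69.6 and 57.3 in TAM, 68.5 and 45.8 in LLC, and 50.4 and 127.7 in Total tumor. The low level in Fibroblast was shared by complexes I to V. Complex I summed to 1337 and 1186 RPKM in Fibroblast and to between 1715 and 4574 in the other 6 libraries. Complex V summed to 1134 and 1029 RPKM in Fibroblast and to between 1715 and 3940 elsewhere. In these sorted and bulk samples, fewer cells of a type and less RNA per cell cannot be told apart. RPKM is scaled to the reads of the library, so more RNA of other genes cannot be told apart from these either.

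**Figure D1:**
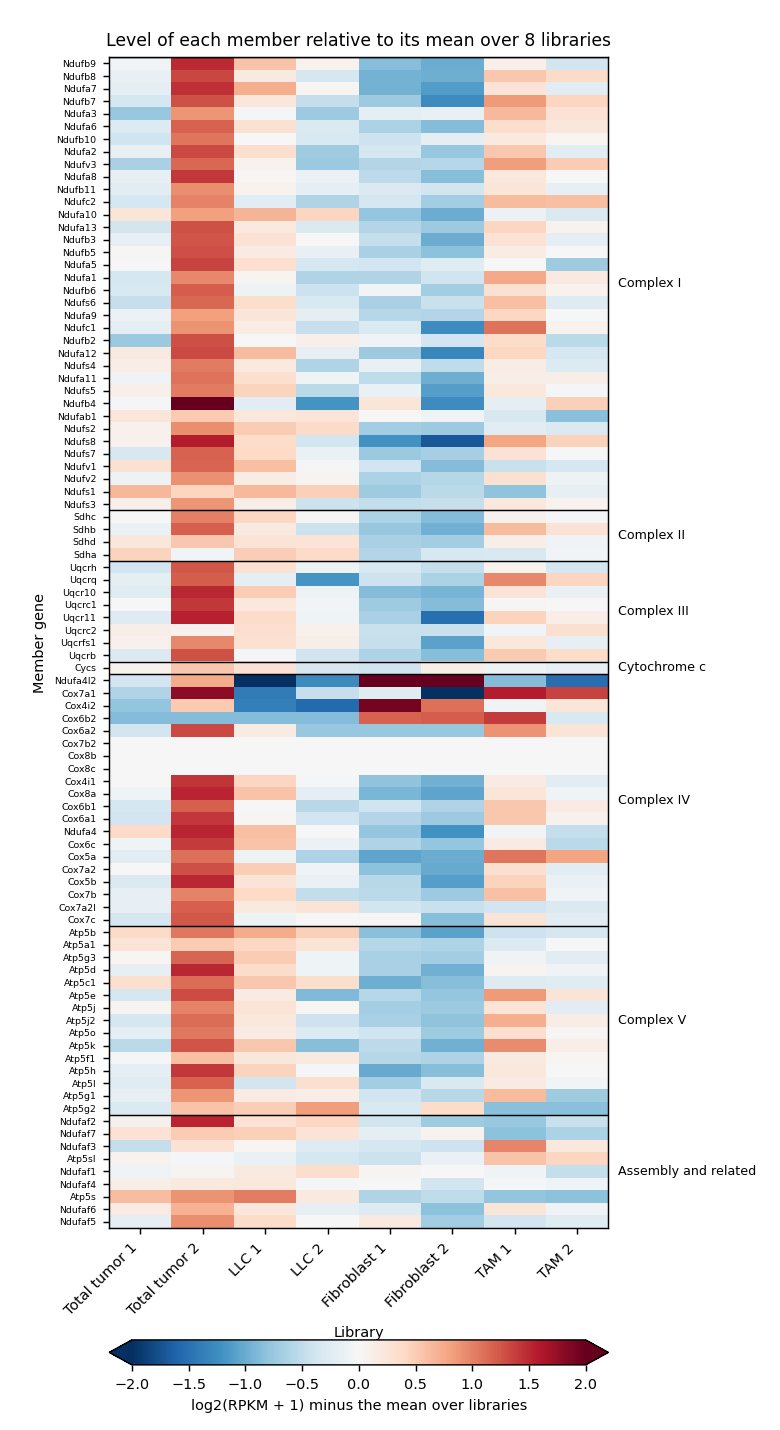
Level of each of the 93 members (rows, grouped by complex) in each of the 8 libraries (columns), as log2(RPKM + 1) minus the member's mean over the libraries, on a colour scale from blue (low) to red (high) that ends at -2 and 2. The 2 Fibroblast columns are blue for most members, Total tumor 2 is red for most, and Ndufa4l2 and Cox4i2 are red in Fibroblast.

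Within the members, the level ran over a wide range. Atp5b, the catalytic beta subunit of ATP synthase, had the highest mean over the 8 libraries, at 489.6 RPKM. Cox4i1, the general isoform of cytochrome c oxidase subunit 4, followed in complex IV with 353.8 RPKM. Core subunits of complex I had means of 27.9 to 87.0 RPKM, and those of complex II, the succinate dehydrogenase, 63.7 to 102.7. The 8 restricted isoforms of complex IV had means of 0 to 20.1 RPKM, and Cox8b, Cox8c and Cox7b2, known from muscle or testis, did not reach 1 RPKM in 2 libraries. Assembly factors and related proteins lay between 2.82 and 21.3 RPKM. A filter of at least 1 RPKM in at least 2 libraries kept 89 members for testing, and left out Cycs besides these 3 isoforms.

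Each pair of groups was compared with limma's test on log2(RPKM + 1), fitted over all 8 libraries. In this fit the groups share the estimate of a gene's spread, so Total tumor also enters the tests between sorted groups. For the members the spread between libraries was largest in Total tumor, as given below. A difference was called when its Benjamini-Hochberg adjusted p over the 13311 genes tested was under 0.05. Log2 differences are on this log2(RPKM + 1) scale, which understates the change of genes with low RPKM. The groups share libraries between comparisons, so the comparisons are not independent of each other. The scale of the libraries was not equal: all genes had a median log2 difference of 0.13 in TAM minus Fibroblast, -0.46 in Fibroblast minus LLC and -0.38 in TAM minus LLC. In the same order these medians were -0.10, -0.05 and -0.21 with upper-quartile rescaling, 0.10, -0.19 and -0.15 with quantile normalization, and 0.08, -0.13 and -0.08 with a correction for transcript length.

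TAM stood above Fibroblast for most members. In 68 of the 89 both TAM libraries lay above both Fibroblast libraries (76.4%, against 41.5% of all genes tested), and in 7 both lay below (7.87%, against 31.6%). The median member differed by 0.73 on the log2 scale, against 0.13 over all genes. Complexes I, II, III, IV and V had medians of 0.75, 0.74, 0.88, 0.87 and 0.70. These 5 medians stayed above 0 under upper-quartile rescaling, quantile normalization and the length correction, with values between 0.35 and 0.59. In the fit over all 8 libraries few single members passed the test. It called 7 higher (7.87% of members, against 17.4% of all genes) and 1 lower (1.12%, against 17.3%). A fit of only these 2 groups called 44 higher (49.4%, against 22.9% of all genes) and 2 lower (2.25%, against 19.4%).

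In the fit over all 8 libraries, the subunits called higher in TAM than in Fibroblast came from complexes I, II and IV, with Atp5sl beside them. Cox5a, a general subunit of complex IV, had 149.2 and 122.3 RPKM in TAM and 33.5 and 35.0 in Fibroblast. LLC had 65.5 and 45.5, and Total tumor 60.9 and 153.0. The TAM libraries were above the LLC and Fibroblast libraries with no overlap. The log2 difference to Fibroblast was 1.95 (SE 0.42, adjusted p = 0.00844, limma). Ndufs8, an iron-sulfur subunit of complex I, had 102.1 and 81.3 RPKM in TAM, 24.7 and 17.4 in Fibroblast, 75.8 and 45.5 in LLC and 62.1 and 176.8 in Total tumor. Fibroblast was the lowest of the 4 groups, and its difference from TAM was 2.08 (SE 0.49, adjusted p = 0.0127). Ndufb7, an accessory subunit of complex I, had 164.4 and 122.4 RPKM in TAM and 54.2 and 37.1 in Fibroblast (1.64, SE 0.53, adjusted p = 0.0466). Sdhd, a membrane anchor of complex II, had 80.4 and 69.5 RPKM in TAM and 46.2 and 44.7 in Fibroblast (0.70, SE 0.23, adjusted p = 0.0459). Atp5sl, also named Dmac2, a factor for the assembly of complex I, had 10.3 and 9.27 RPKM in TAM and 4.68 and 5.92 in Fibroblast. Its log2 difference was 0.78 (SE 0.25, adjusted p = 0.0468).

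As calls at an adjusted p under 0.05 these were not stable, but a refit without a library of a compared group has only 1 left there. Likewise, a refit without a Total tumor library has only 1 left in that group, which then adds nothing to the shared spread. Without each library in turn, the log2 difference ran from 1.81 to 2.09 for Cox5a, 1.84 to 2.33 for Ndufs8 and 1.37 to 1.91 for Ndufb7. It ran from 0.60 to 0.81 for Sdhd and 0.64 to 0.92 for Atp5sl. The call of Cox5a ended without Fibroblast 1 or 2 or TAM 1, as did that of Ndufs8, with adjusted p-values of up to 0.064 and 0.107 over the alternatives. Those of Ndufb7, Sdhd and Atp5sl ended without any 1 of the 6 sorted libraries, with adjusted p-values of up to 0.252, 0.267 and 0.249. The number called higher was 49 without Total tumor 1 and 49 without Total tumor 2 (55.1% of members, against 25% of all genes in the same fits), 2 without either LLC library or TAM 2, 1 without Fibroblast 1 and 0 without Fibroblast 2 or TAM 1. The number called lower was 4 without either Total tumor library, 2 without TAM 1 and 1 without any other. The split of 7 higher and 1 lower became 3 and 3 with upper-quartile rescaling and 9 and 4 with the length correction.

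On the deposited RPKM scale Fibroblast lay below LLC for most members, and the large exceptions were isoforms of complex IV. In 63 members both Fibroblast libraries were below both LLC libraries (70.8%, against 56.6% of all genes), and in 3 both were above (3.37%, against 22.5%). With upper-quartile rescaling 38 were below (42.7%, against 38.3% of all genes), so that this was no longer so for most members. It was 54 with quantile normalization (60.7%, against 45.8%) and 47 with the length correction (52.8%, against 43.9%). The median member differed by -0.62, against -0.46 over all genes. The medians of complexes I to V lay between -0.59 and -0.92, and stayed below 0 under the 3 other scalings, between -0.12 and -0.73. The median of the 9 assembly factors was -0.42, and 0.03 with upper-quartile rescaling. The test called 12 members lower (13.5%, against 25.7% of all genes) and 3 higher (3.37%, against 13.0%).

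The members called lower in Fibroblast than in LLC included the ATP synthase subunits Atp5b, Atp5c1, Atp5a1 and Atp5f1. Atp5b had 243.6 and 205.3 RPKM in Fibroblast, 727.9 and 601.6 in LLC, 326.1 and 342.2 in TAM and 567.9 and 901.9 in Total tumor. The sorted groups did not overlap, with Fibroblast lowest and LLC highest (Fibroblast minus LLC -1.56, SE 0.37, adjusted p = 0.0139). Atp5c1, the gamma subunit that turns inside the enzyme, had 80.6 and 87.8 RPKM in Fibroblast and 231.9 and 204.9 in LLC (-1.36, SE 0.32, adjusted p = 0.0132). Atp5a1, the alpha subunit, had 145.8 and 141.8 RPKM in Fibroblast and 290.0 and 262.6 in LLC (-0.94, adjusted p = 0.0313). Ndufa10, an accessory subunit of complex I, had 34.5 and 29.5 RPKM in Fibroblast and 96.9 and 80.6 in LLC (-1.44, SE 0.27, adjusted p = 0.00529). Sdhd had 88.3 and 88.9 RPKM in LLC and differed by -0.95 (adjusted p = 0.0145). Sdha, the flavoprotein of complex II, had 40.8 and 49.0 RPKM in Fibroblast and 87.1 and 80.3 in LLC (-0.89, adjusted p = 0.0303). Sdhb and Sdhc, the iron-sulfur subunit and the other membrane anchor of complex II, were not called here in the fit over all 8 libraries.

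The calls of Atp5b, Atp5c1, Sdha and Sdhd ended without any 1 of the 4 LLC and Fibroblast libraries, that of Atp5a1 also without either TAM library, and that of Ndufa10 without LLC 1 or Fibroblast 2. The highest adjusted p over the alternatives was 0.125 for Atp5b, 0.0939 for Atp5c1, 0.213 for Atp5a1, 0.367 for Sdha, 0.13 for Sdhd and 0.0534 for Ndufa10. The number called lower was 43 without either Total tumor library (48.3%, against 38.3% of all genes in the same fits), 7 without either TAM library, 3 without LLC 2, 1 without Fibroblast 1 and 0 without LLC 1 or Fibroblast 2. The split of 3 higher and 12 lower was 3 and 3 with upper-quartile rescaling.

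**Figure D2:**
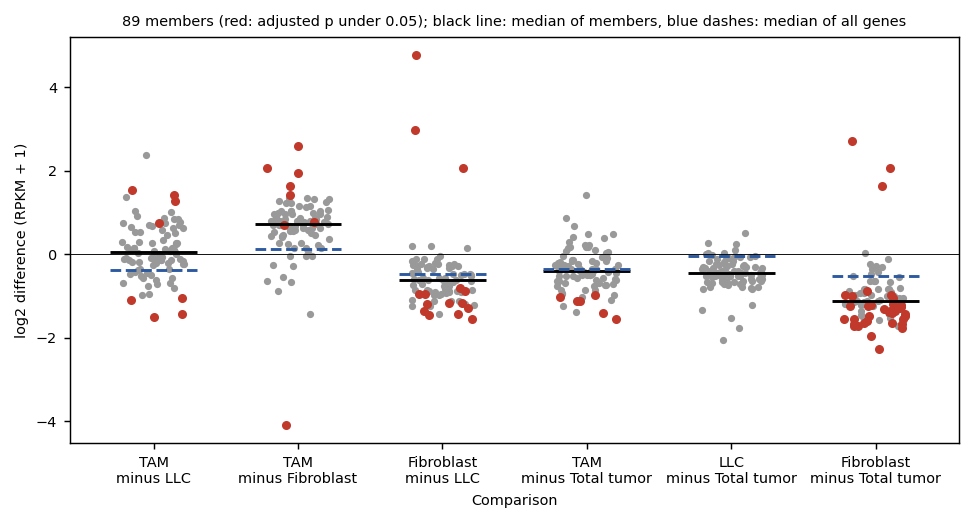
Log2 difference of the 89 members tested (points) in each of the 6 comparisons, with calls at an adjusted p under 0.05 in red, the median of the members as a black line and that of all genes as blue dashes. The median of the members is 0.73 for TAM minus Fibroblast and -0.62 for Fibroblast minus LLC, and the isolated red points at 4.77 and -4.09 are Ndufa4l2.

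Between TAM and LLC no common direction was seen on the deposited RPKM scale, and the counts depended on the scaling. Both TAM libraries were above both LLC libraries in 23 members (25.8%, against 25.5% of all genes) and below in 18 (20.2%, against 50.9%). The first count was 37 with upper-quartile rescaling (41.6%, against 29.9%), and the second 30 with quantile normalization (33.7%, against 42.2%). The median member differed by 0.05, against -0.38 over all genes. It was 0.22 with upper-quartile rescaling (all genes -0.21), -0.02 with quantile normalization (all genes -0.15) and 0.06 with the length correction (all genes -0.08). The test called 4 members higher in TAM (4.49%, against 15.4% of all genes) and 4 lower (4.49%, against 27.5%). Those called higher were Cox5a, Atp5sl, Cox4i2 and Cox6b2, and those called lower were Atp5g2, Atp5s, Ndufaf7 and Ndufs1. Cox5a differed by 1.29 (SE 0.42, adjusted p = 0.0409), and Atp5sl, at 5.93 and 4.98 RPKM in LLC, by 0.74 (SE 0.25, adjusted p = 0.0473).

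Ndufs1, the largest core subunit of complex I, differed from most members in being low in TAM. It had 15.2 and 24.4 RPKM in TAM, 43.6 and 38.4 in LLC, 16.3 and 18.5 in Fibroblast and 44.1 and 37.1 in Total tumor. TAM and Fibroblast overlapped, and both lay below LLC and Total tumor. The log2 difference was -1.05 for TAM minus LLC (SE 0.27, adjusted p = 0.0166), -1.19 for Fibroblast minus LLC (adjusted p = 0.0118) and -1.03 for TAM minus Total tumor (adjusted p = 0.022). Ndufaf7, a methyltransferase needed to assemble complex I, had 4.02 and 4.67 RPKM in TAM, 6.83 and 8.27 in Fibroblast, 11.3 and 9.64 in LLC and 9.84 and 11.6 in Total tumor. TAM was the lowest group with no overlap (TAM minus LLC -1.10, SE 0.25, adjusted p = 0.00994). Atp5s, also named Dmac2l and known as coupling factor B of ATP synthase, had 1.58 and 1.51 RPKM in TAM, 1.95 and 2.13 in Fibroblast, 8.05 and 4.09 in LLC and 5.80 and 7.29 in Total tumor (TAM minus LLC -1.42, SE 0.33, adjusted p = 0.0111). Atp5g2 was listed at 0 in both TAM libraries, at 1.5 and 2.18 RPKM in LLC, at 0.450 and 1.31 in Fibroblast and at 0.468 and 1.65 in Total tumor, and its TAM minus LLC difference was called (adjusted p = 0.0133). These levels correspond to about 11 and 7 reads in LLC and 0 in both TAM libraries. Much of the Atp5g2 sequence also occurs in pseudogenes.

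In TAM minus LLC, the calls of Cox5a and Atp5sl ended without any 1 of the 6 sorted libraries, that of Ndufs1 without LLC 1, LLC 2 or TAM 1, that of Ndufaf7 without LLC 1 or TAM 1, that of Atp5s without LLC 1 or either TAM library, and that of Atp5g2 without LLC 2 or either TAM library. For Ndufs1, Fibroblast minus LLC ended without LLC 1 or either Fibroblast library (adjusted p of up to 0.111). The highest adjusted p over the alternatives of TAM minus LLC was 0.202 for Cox5a, 0.207 for Atp5sl, 0.108 for Ndufs1, 0.0749 for Ndufaf7, 0.0801 for Atp5s and 0.0806 for Atp5g2. Members called higher and lower were 9 and 12 without either Total tumor library (10.1 and 13.5%, against 18.9 and 36.4% of all genes), 0 and 1 without LLC 1, 0 and 2 without LLC 2, 1 and 4 without either Fibroblast library, 0 and 0 without TAM 1, and 1 and 2 without TAM 2. The even split of 4 and 4 was 7 and 4 with upper-quartile rescaling and 6 and 10 with quantile normalization.

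The restricted isoforms of complex IV had group patterns of their own. Ndufa4l2, a relative of the complex IV subunit Ndufa4 that is known to respond to low oxygen and is also known from pericytes, had 75.5 and 56.6 RPKM in Fibroblast. It had 0.603 and 2.68 RPKM in LLC, 3.90 and 2.10 in TAM and 5.84 and 13.9 in Total tumor. Both Fibroblast libraries lay far above the other 6, and LLC and TAM overlapped. The log2 difference was 4.77 for Fibroblast minus LLC (SE 0.52, adjusted p = 0.000615), -4.09 for TAM minus Fibroblast (SE 0.52, adjusted p = 0.00059) and 2.71 for Fibroblast minus Total tumor (SE 0.52, adjusted p = 0.00576). The first 2 were called without each library in turn and under every alternative, with adjusted p-values of up to 0.0108 and 0.0121. The third was lost without Fibroblast 1 (adjusted p = 0.0549).

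Ndufa4 itself ran the other way. It had 87.1 and 64.5 RPKM in Fibroblast, 227.4 and 149.8 in LLC, 144.1 and 107.8 in TAM and 197.0 and 435.3 in Total tumor. Fibroblast was the lowest group, and its difference from LLC was -1.29 (SE 0.43, adjusted p = 0.0486), a call that ended without any 1 of the 6 sorted libraries (adjusted p of up to 0.248 over the alternatives). Ndufa4l2 therefore made up 46.4 and 46.7% of the summed RPKM of Ndufa4 and Ndufa4l2 in Fibroblast, and 0.264 to 3.1% in the other 6 libraries.

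Cox4i2, the isoform of subunit 4 known from lung and from low oxygen, had 10.1 and 5.26 RPKM in Fibroblast, 0.133 and 0 in LLC, 1.78 and 2.48 in TAM and 0.693 and 3.23 in Total tumor. Fibroblast was above every other library, and LLC below every other library. The difference between Fibroblast and LLC was 2.97 (SE 0.47, adjusted p = 0.00279), and it was called without each library in turn and under every alternative, with adjusted p-values of up to 0.0282. The size of this difference depends on the pseudocount, since LLC is at or near 0. Estimated reads of Cox4i2 were about 76 and 18 in Fibroblast, 1 and 0 in LLC and 11 and 8 in TAM. TAM also exceeded LLC (1.55, SE 0.47, adjusted p = 0.0325), a call that ended without LLC 1 or 2 or TAM 1 or 2 (adjusted p of up to 0.145 over the alternatives). TAM minus Fibroblast was -1.42 (adjusted p = 0.0516). Its partner isoform Cox4i1 had 177.0 and 158.7 RPKM in Fibroblast and 418.0 and 306.2 in LLC (-1.09, adjusted p = 0.116). Cox4i2 was 5.41 and 3.21% of the sum of both in Fibroblast, and at most 0.912% in the other 6 libraries.

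Markers of pericytes and smooth muscle moved with Ndufa4l2 and Cox4i2. The 5 markers (Rgs5, Cspg4, Myh11, Kcnj8 and Abcc9) summed to 121.5 and 89.7 RPKM in Fibroblast, 1.51 and 2.92 in LLC, 1.17 and 1.97 in TAM and 11.3 and 3.94 in Total tumor. Each of the 5 was higher in both Fibroblast libraries than in the other 6, and Rgs5 reached 67.2 and 57.7 RPKM there. None of the 5 was at 0 in any library. The 5 endothelial markers also had their highest sum in Fibroblast, at 52.7 and 51.0 RPKM, against 1.30 to 33.9 in the other 6 libraries. Of these, Tek (20.2 and 31.4 RPKM) and Kdr (16.8 and 10.2) were highest in Fibroblast, while Pecam1, Cdh5 and Emcn were not. The part of these markers in the level of Ndufa4l2 and Cox4i2 was not tested.

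Cox7a1, the isoform of subunit 7a typical of heart and skeletal muscle, had 11 and 9.29 RPKM in TAM, 2.40 and 0 in Fibroblast, 0.533 and 1.94 in LLC and 1.66 and 12.9 in Total tumor. These are about 37 and 16 reads in TAM, 10 and 0 in Fibroblast and 2 and 3 in LLC. TAM lay above Fibroblast and LLC, and Total tumor 2 lay above TAM. The difference between TAM and Fibroblast was 2.59 (SE 0.84, adjusted p = 0.0459), and TAM minus LLC was 2.39 (SE 0.84, adjusted p = 0.0517). The call against Fibroblast ended without LLC 1 or 2, Fibroblast 2, or TAM 1 or 2 (adjusted p of up to 0.299 over the alternatives). Cox7a2, the general isoform, had 90.4 and 62.3 RPKM in TAM and 40.8 and 35.7 in Fibroblast (0.96, adjusted p = 0.138). Cox7a1 was 10.9 and 13.0% of the sum of both in TAM, 5.55 and 0% in Fibroblast, 0.518 and 2.74% in LLC and 2.22 and 6.71% in Total tumor. Cox6a2, another muscle isoform, had 2.14 and 1.02 RPKM in TAM, 0.881 and 0 in LLC, 0.305 and 3.23 in Total tumor, and was listed at 0 in both Fibroblast libraries, with no call. The 7 skeletal muscle markers summed to 3.87 and 1.26 RPKM in TAM, 1.66 and 0.432 in Fibroblast and 2.06 and 11.4 in Total tumor, and Myh4 and Pvalb among them were at 0 in all 8 libraries. The 2 brown fat markers summed to at most 0.136 RPKM.

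Cox6b2, the testis isoform of subunit 6b, was listed at 0 in both Total tumor and both LLC libraries, at 3.16 and 3.23 RPKM in Fibroblast and at 3.83 and 0.489 in TAM. It was called higher in Fibroblast than in LLC (adjusted p = 0.0136) and in TAM than in LLC (adjusted p = 0.0483). These levels correspond to about 19 and 9 reads in Fibroblast and 19 and 1 in TAM. The call for Fibroblast ended without LLC 1 or 2 or Fibroblast 1 or 2 (adjusted p of up to 0.0793), and that for TAM without any library other than TAM 2 (up to 0.18). The general isoform Cox6b1 had 141.7 to 163.3 RPKM in Fibroblast, so Cox6b2 was 1.90 and 2.23% of the sum of both there.

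**Figure D3:**
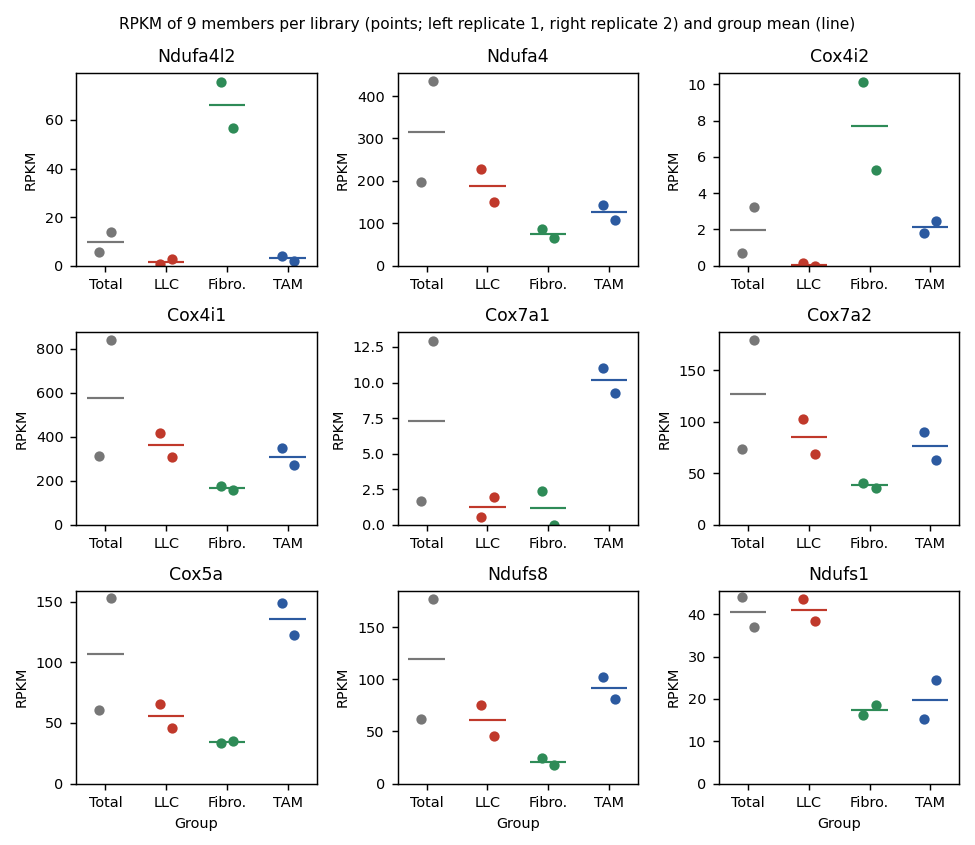
RPKM per library (points, replicate 1 left and replicate 2 right) and group mean (line) of 9 members in Total tumor, LLC, Fibroblast and TAM, each on its own axis from 0. Ndufa4l2 reaches 75.5 and 56.6 RPKM in Fibroblast and at most 13.9 elsewhere, while Ndufa4 is lowest in Fibroblast, and Cox5a is at 149.2 and 122.3 RPKM in TAM.

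In the fit over all 8 libraries, the general subunits of complexes III and IV yielded no call between sorted groups other than those of Cox5a and Ndufa4. Uqcrc1, a core protein of complex III, had 104.5 and 101.9 RPKM in TAM, 62.0 and 56.0 in Fibroblast and 118.5 and 98.1 in LLC. Its fellow core protein Uqcrc2 had 46.0 and 60.2 RPKM in TAM and 34.7 and 34.8 in Fibroblast. Uqcrfs1, the Rieske iron-sulfur protein, had 45.9 and 35.2 RPKM in TAM and 28.7 and 18.5 in Fibroblast. Cox5b, Cox6a1, Cox6c, Cox7b and Cox8a were each higher in both TAM libraries than in both Fibroblast libraries. Cox8a, for example, had 293.4 and 232.0 RPKM in TAM and 130.2 and 118.2 in Fibroblast. Cox7a2l, which helps join complexes III and IV, had 45.4 and 48.5 RPKM in TAM and 45.9 and 43.6 in Fibroblast, which overlap.

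Against Total tumor, the members of Fibroblast were low. In 70 members both Fibroblast libraries were below both Total tumor libraries (78.7%, against 52.0% of all genes) and in 3 above (3.37%, against 18.4%). The test called 33 lower (37.1%, against 30.0% of all genes) and 3 higher (3.37%, against 12.1%). The median member differed by -1.13, against -0.51 over all genes. This gap narrowed with the scaling. With upper-quartile rescaling 36 members were below (40.4%, against 31.5% of all genes) and the median was -0.53 (all genes -0.01). With the length correction 35 were below (39.3%, against 36.7%) and the median was -0.26 (all genes -0.08). With quantile normalization 54 were below (60.7%, against 37.3%) and the median was -0.70 (all genes -0.13). Among the members called lower without overlap, the 4 largest differences were those of Ndufs8 (-2.28, adjusted p = 0.0093), Ndufa4 (-1.95, adjusted p = 0.0102), Ndufa12 (-1.76, adjusted p = 0.0205) and Uqcr11 (-1.72, adjusted p = 0.0419). Ndufa12, much of whose sequence also occurs in pseudogenes, is an accessory subunit of complex I, and Uqcr11 a small subunit of complex III. The 3 called higher were Ndufa4l2 (2.71), Cox6b2 (2.07, against a group listed at 0) and Cox4i2 (1.64, adjusted p = 0.0274).

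These counts moved with single libraries. Members called lower numbered 76 without Total tumor 1 (85.4%, against 38.4% of all genes in the same fit), 17 without Total tumor 2 (19.1%, against 31.2%), 20 without any 1 of the LLC or TAM libraries, 4 without Fibroblast 1 and 0 without Fibroblast 2. Those called higher numbered 0 without Fibroblast 1, 1 without Fibroblast 2, 2 without Total tumor 1 and 3 without any other library. The split of 3 higher and 33 lower was 3 and 5 with upper-quartile rescaling and 4 and 6 with the length correction. The median of the members was -1.71 without Total tumor 1 and -0.53 without Total tumor 2, the latter next to -0.52 over all genes. Over the alternatives, adjusted p-values reached 0.0803 for Ndufs8, 0.0886 for Ndufa4, 0.142 for Ndufa12, 0.239 for Uqcr11 and 0.165 for Cox4i2. The calls of Ndufs8 and Ndufa4 ended without Fibroblast 2, that of Ndufa12 without Total tumor 2 or either Fibroblast library, that of Cox4i2 without Total tumor 1 or either Fibroblast library, that of Cox6b2 without either Fibroblast library, and that of Uqcr11 without any library other than Total tumor 1.

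TAM and LLC differed less from Total tumor. In TAM, 6 members were called lower than in Total tumor (6.74%, against 23.9% of all genes) and 0 higher (against 11.3%), with 13 and 1 at an unadjusted p under 0.05 in limma. Both TAM libraries were below both Total tumor libraries in 19 members (21.3%, against 42.6%) and above in 2 (2.25%, against 19.6%), the latter 23 with the length correction (25.8%, against 33.9%). Among those called lower, Ndufv1, the subunit of complex I that accepts electrons from NADH, had 33.2 and 35.3 RPKM in TAM and 56.4 and 102.4 in Total tumor (-1.13, adjusted p = 0.0438). Ndufaf2, an assembly factor of complex I, had 10.5 and 13.2 RPKM in TAM and 19.7 and 54.6 in Total tumor (-1.40, adjusted p = 0.0388). Atp5s (-1.56, adjusted p = 0.0101) and Ndufaf7 (-1.13, adjusted p = 0.0117) were also lower, as were Ndufs1 and Ndufab1, the acyl carrier protein of mitochondria. Ndufab1 had 1.62 and 0.843 RPKM in TAM and 2.89 and 3.73 in Total tumor (-0.97, adjusted p = 0.0332).

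The calls of Ndufv1, Ndufaf2 and Ndufab1 ended without any library other than Total tumor 1, those of Ndufaf7 and Ndufs1 without TAM 1, and that of Atp5s without either TAM library. Adjusted p-values over the alternatives reached 0.162, 0.17, 0.355, 0.0905, 0.131 and 0.0572 for these 6 genes in that order. Members called higher and lower numbered 0 and 50 without Total tumor 1 (for the lower ones 56.2%, against 31.0% of all genes in the same fit), 5 and 3 without Total tumor 2, 0 and 3 without any 1 of the LLC or Fibroblast libraries, 0 and 0 without TAM 1, and 1 and 2 without TAM 2. The split of 0 and 6 was 2 and 8 with quantile normalization and 7 and 5 with the length correction. The median member was at -0.39 (all genes -0.36), but at 0.12 (all genes 0.05) with the length correction, at -0.97 without Total tumor 1 and at 0.21 without Total tumor 2.

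Between LLC and Total tumor limma called 0 members higher and 0 lower (against 0.0526% and 2.3% of all genes), with 0 and 3 at an unadjusted p under 0.05. Without Total tumor 1 it called 37 lower (41.6%, against 11.2% of all genes in the same fit), and without any other library 0. Both LLC libraries were above both Total tumor libraries in 1 member (1.12%, against 15.4%) and below in 5 (5.62%, against 17.4%), and with the length correction in 14 (15.7%, against 26.3%) and 3 (3.37%, against 14.9%). The median member was at -0.45 (all genes -0.03), at 0.05 (all genes 0.08) with the length correction, at -1.16 without Total tumor 1 and at 0.13 without Total tumor 2.

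Most members are short transcripts, and in Total tumor and LLC their replicate spread fell with length. In TAM and Fibroblast it was lowest at 1 to 2 kb. Of the 89 members, 10 were shorter than 0.5 kb, 45 were 0.5 to 1 kb, 25 were 1 to 2 kb and 9 were longer than 2 kb. Of 13149 genes tested with a known length, 405 and 900 fell into the first 2 classes. In Total tumor, library 2 was above library 1 in 94.4% of the members, and the median log2 difference (library 2 minus 1) was 1.77 under 0.5 kb, 1.47 at 0.5 to 1 kb, 0.85 at 1 to 2 kb and 0.25 above 2 kb. Over all genes these medians were 0.00, 1.09, 0.62 and -0.22. Signs cancel in such medians. The median absolute differences were 1.77, 1.47, 0.85 and 0.28 in the members and 1.43, 1.16, 0.72 and 0.51 over all genes. The medians of the members in the other groups went the opposite way and less far. In LLC the medians of the members were -0.63, -0.46, -0.28 and -0.18, in TAM -0.52, -0.36, -0.16 and -0.12, and in Fibroblast -0.25, -0.19, -0.08 and -0.08. The median absolute differences in LLC were 0.67, 0.52, 0.28 and 0.18 (all genes 0.73, 0.42, 0.31 and 0.22). In TAM they were 0.52, 0.37, 0.21 and 0.26 (all genes 0.47, 0.44, 0.31 and 0.27). In Fibroblast they were 0.26, 0.24, 0.13 and 0.22 (all genes 0.58, 0.30, 0.23 and 0.20). The shortest class holds 10 members and the longest 9, so these ends are thin.

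For members with at least 20 estimated reads in both libraries, the ratio of the libraries was set beside its counting error, the least spread that separate libraries can have. The ratio lay beyond 2 counting standard errors in 75 of 83 members in Total tumor, 59 of 78 in LLC, 53 of 77 in TAM and 27 of 76 in Fibroblast, where most did not. The median absolute log2 ratio was 1.34 in Total tumor, 0.45 in LLC, 0.37 in TAM and 0.20 in Fibroblast, against median counting errors of 0.09 to 0.13. Total tumor 2 also had a macrophage marker sum of 2649 RPKM against 784.7 in Total tumor 1 and about 4.70 M reads against 9.96 M. Its neutrophil markers summed to 583.2 RPKM against 129.9, its T and NK cell markers to 6.81 against 29.9, and its B cell markers to 0.882 against 34.7. The part of these in the spread was not tested.

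**Figure D4:**
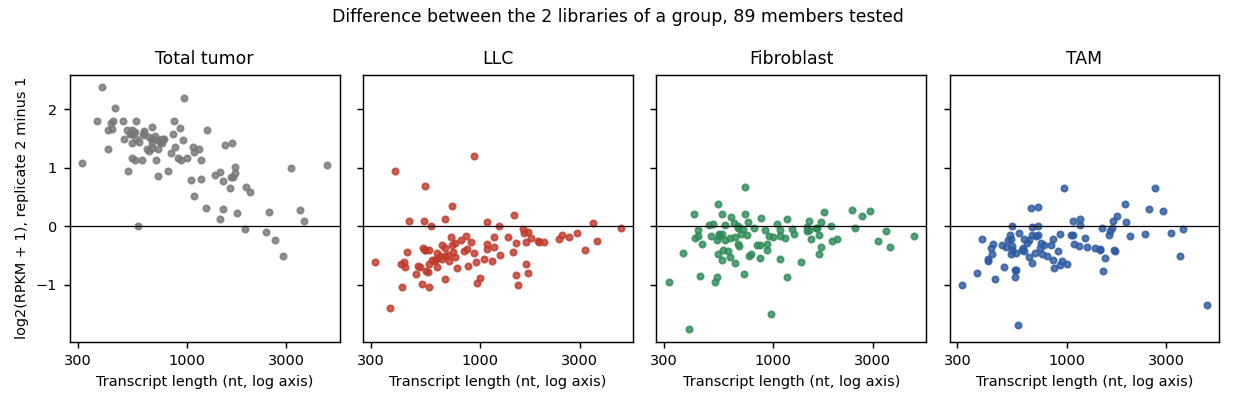
Difference between the 2 libraries of a group (log2(RPKM + 1), replicate 2 minus replicate 1) for the 89 members tested, against transcript length in nt on a log axis, 1 panel per group. In Total tumor the short members are at up to more than 2 and the long ones near 0, while in LLC, Fibroblast and TAM most points lie a little below 0.

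A few subunits used by almost all cells were listed at very low RPKM. Cycs, which encodes the cytochrome c of body cells, had 0.031 to 0.969 RPKM in the 8 libraries. The genes Atp5g1, Atp5g2 and Atp5g3 encode the same subunit c of ATP synthase, and Atp5g3 had a mean of 335.6 ± 178.0 RPKM (SD, n = 2) in Total tumor, 241.9 ± 70.5 in LLC, 128.4 ± 2.68 in Fibroblast and 185.5 ± 14.6 in TAM. Atp5g1 had 2.54 to 9.62 RPKM and Atp5g2 0 to 2.18. Each member transcript was cut into all its windows of 50 letters, the read length, and these were looked up in the annotated pseudogenes. Of the 76 general subunits with Cycs, 41 shared no window with a pseudogene, and the lowest of them had a mean of 23.7 RPKM. Among the 35 that shared any, 7 had a mean under 10 RPKM, namely Cycs, Atp5g1, Atp5g2, Ndufab1, Cox7c, Atp5l and Ndufb4.

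The share of windows found in a pseudogene was 68.5% for Atp5l, 57.5% for Atp5g2, 53.8% for Ndufa12, 50.5% for Atp5h, 43.2% for Uqcrb, 41.2% for Ndufs5, 37.0% for Ndufb4, 35.8% for Ndufs3 and 29.1% for Cox7c. The values of these genes are uncertain, since no source used here gives how reads with several matches were counted. The share was 12.3% for Ndufab1, 8.80% for Cycs and 8.30% for Atp5g1. For these 3 genes the table lists transcripts that are 3479, 3123 and 4715 nt long in the annotation, and RPKM divides by length. Their estimated reads per library were about 13 to 100, 1 to 21 and 53 to 320. Sdhc, at 3171 nt, had a mean of 102.7 RPKM. The part of length in the low values was not tested. Cox5a shared 3.40% of its windows, Atp5b 0.900%, and Ndufa4, Ndufa4l2, Cox4i1, Cox4i2, Cox7a1, Ndufs1 and Ndufs8 none. Cox7c, a small subunit of complex IV, had 1.90 to 11.4 RPKM, while Cox8a, another small one with no shared window, had 118.2 to 713.8.

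**Figure D5:**
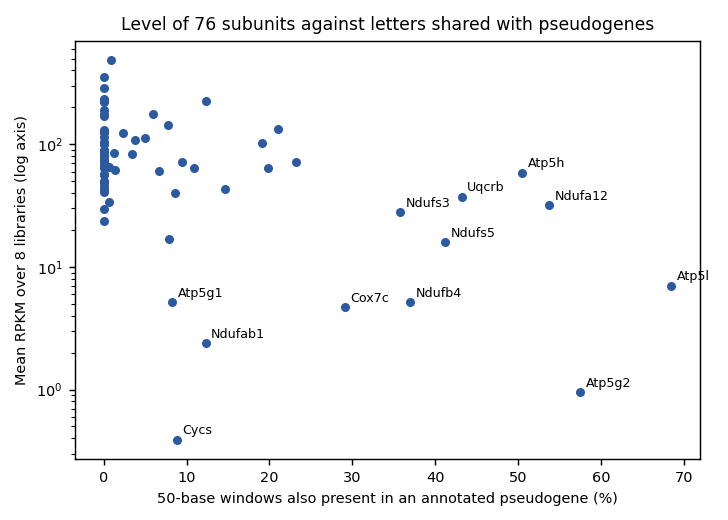
Mean RPKM over the 8 libraries (log axis) of 76 general subunits and cytochrome c, against the percentage of their 50-letter windows that also occur in an annotated pseudogene. All points at 0 percent lie at 23.7 RPKM or more, and the 7 points below 10 RPKM all share windows with pseudogenes.

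The promoters of respiratory chain genes are known for sites of NRF1, of GABP and other ETS factors, and of YY1, which link these genes to mitochondrial biogenesis. Windows of 250 bases before to 50 bases after the start were available from RefSeq for 77 of the 93 members. Both strands of these 83 windows and of all 32851 windows were searched. The NRF1 motif, searched by its core GCGCATGCG, was in 13.3% of the members' windows and 1.75% of all. The ETS motif CCGGAAG was in 20.5% and 8.86%, the YY1 core AAGATGGCG in 10.8% and 1.4%, and the core of the hypoxia response element, ACGTG, in 27.7% and 19.6%. The lengths of the NRF1 and YY1 cores were set after a first search with longer forms. None of the 4 motifs contains another, but the NRF1 core can match both strands at positions shifted by 1 base, and a match is a run of letters and not a measured binding site.

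The 250 bases before the start of 3 members are shown. Atp5k and Cox6a1 are examples of the motifs, and Cox5a, like Atp5sl, was called higher in TAM than in both other sorted groups. All 3 were chosen after their values and matches were seen. Atp5k, a small subunit of ATP synthase, and Cox6a1, the general isoform of subunit 6a, hold the NRF1 motif on both strands, overlapping by all but 1 base, and Cox6a1 also holds the ETS motif on the other strand. Atp5k has an ETS match too, within the 50 bases after the start, which are not printed. Cox5a holds the hypoxia core and neither of these. Sequences are from RefSeq on build GRCm38.p6, read 5′ to 3′ along the gene's strand, with matched motifs in capitals. Cox6a1 lies at chr5:115348959-115349208 on the minus strand, Atp5k at chr5:108434400-108434649 on the minus strand, and Cox5a at chr9:57520982-57521231 on the plus strand.
Cox6a1: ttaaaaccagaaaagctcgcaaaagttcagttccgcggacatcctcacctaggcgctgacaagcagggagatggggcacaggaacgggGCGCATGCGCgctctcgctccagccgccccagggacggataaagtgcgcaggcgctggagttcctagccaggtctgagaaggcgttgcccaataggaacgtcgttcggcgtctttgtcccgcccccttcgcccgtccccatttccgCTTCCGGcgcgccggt
Atp5k: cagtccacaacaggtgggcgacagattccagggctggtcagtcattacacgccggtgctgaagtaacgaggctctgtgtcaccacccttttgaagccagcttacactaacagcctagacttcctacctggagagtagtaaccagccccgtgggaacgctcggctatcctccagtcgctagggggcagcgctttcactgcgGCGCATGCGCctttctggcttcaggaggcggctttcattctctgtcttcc
Cox5a: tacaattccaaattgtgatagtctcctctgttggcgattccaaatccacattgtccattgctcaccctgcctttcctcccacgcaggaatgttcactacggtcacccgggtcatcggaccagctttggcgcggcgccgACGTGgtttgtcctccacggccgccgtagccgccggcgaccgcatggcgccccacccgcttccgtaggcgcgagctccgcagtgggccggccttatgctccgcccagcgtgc
Cox6a1 had 291.8 and 213.2 RPKM in TAM, 133.1 and 120.7 in Fibroblast and 203.1 and 152.8 in LLC, with LLC between the other sorted groups and no overlap. For Cox5a the same groups were at 149.2 and 122.3, 33.5 and 35.0, and 65.5 and 45.5 RPKM.

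Other mitochondrial pathways were counted with lists of genes outside the members. Of 18 tested genes of pyruvate dehydrogenase and the citric acid cycle, 12 were called lower and 0 higher in Fibroblast than in LLC (66.7% lower, against 25.7% of all genes, and a median of -0.98, against -0.46), among them Mdh2, malate dehydrogenase (-1.43, adjusted p = 0.0228). Of 77 mitochondrial ribosomal proteins, 30 were called lower and 0 higher in that comparison (39.0% lower, median -0.90), among them Mrps6 (-2.91, adjusted p = 0.00121). Of 17 regulators of mitochondrial growth 11 were called lower and 0 higher (64.7% lower). The other lists lay at or below the 25.7% of all genes, with 8 and 0 of 32 further assembly factors and related proteins, 4 and 1 of 17 genes of fatty acid oxidation, and 3 and 0 of 15 carriers and pores. Acaa2, a thiolase of fatty acid oxidation, was the 1 called higher, with 54.6 and 38.7 RPKM in Fibroblast and 21.8 and 21.4 in LLC (1.06, adjusted p = 0.0118).

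In TAM minus Fibroblast 17.4% of all genes were called higher and 17.3% lower, and of the 6 lists the carriers and pores alone exceeded either share, with 6 higher (40.0%) and 1 lower of 15. The ribosomal proteins had 8 higher and 0 lower of 77 (10.4% higher), the citric acid cycle list 2 and 2 of 18, the assembly factors 2 and 0 of 32, the growth regulators 1 and 0 of 17, and fatty acid oxidation 0 and 1 of 17. Ucp2, an uncoupling protein of the inner membrane that is high in immune cells, had 337.8 and 277.8 RPKM in TAM, 6.80 and 11.3 in Fibroblast and 2.44 and 10.5 in LLC. It differed by 4.97 from Fibroblast (adjusted p = 0.000639) and by 5.61 from LLC (adjusted p = 0.000422). Slc25a4, an ADP/ATP carrier, had 78.4 and 78.6 RPKM in TAM, 210.9 and 174.9 in Fibroblast and 331.5 and 274.9 in LLC (TAM minus Fibroblast -1.28, adjusted p = 0.0152). Vdac2, a pore of the outer membrane, was higher in TAM than in Fibroblast (1.40, adjusted p = 0.00271). In TAM minus LLC 15.4% of all genes were called higher and 27.5% lower, and the growth regulators alone exceeded either share, with 2 higher and 8 lower of 17 (47.1% lower). The ribosomal proteins had 0 higher and 12 lower (15.6% lower), the citric acid cycle list 0 and 3, the assembly factors 0 and 3, the carriers 2 and 2, and fatty acid oxidation 0 and 1. Esrra, a nuclear receptor that drives respiratory genes, was among those called higher (1.53, adjusted p = 0.019) with 9.85 and 5.62 RPKM in LLC against 22.1 and 24.8 in TAM. Tfam, which packages mitochondrial DNA, was lower in TAM (-0.98, adjusted p = 0.0233), at 4.35 and 6.56 RPKM against 12.6 and 10.6 in LLC. The calls of these list genes were not rerun under the alternatives.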

How the data were processed

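RPKM values were deposited by the authors as 1 table with a column per library. STAR, HOMER and the build mm9 are named in the submitters' processing notes. Tool versions, filters, the strand setting and the handling of reads with several matches: not given in the sources used here. Read counts were not used. Depth was estimated from the steps between low RPKM values, so counting errors are approximate. Of 31645 transcripts, 3 without a symbol were left out (at most 0.0032% of a library's RPKM). Limma 3.58.1 (R 4.3.3, with variance trend) was fitted to log2(RPKM + 1) of 13311 genes, with 4 residual and 3.62 prior degrees of freedom. It was also run on simulated data in which a gene had the same spread in every group. That run cannot show how the test behaves with the unequal spread of these groups. Transcript lengths (97.4% of transcripts) and pseudogenes came from GENCODE, promoters from RefSeq, both of a later build than mm9, so no coordinates of the deposited transcripts are printed.

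The members and gene lists were chosen with earlier results of these data known. Named genes were a panel of subunits and isoforms plus, per comparison, up to 4 called members in each direction with the largest difference and no overlap, and up to 2 called list genes in each direction. Atp5f1, Atp5h, Atp5k, Atp5l, Ndufb4, Ndufb8, Ndufs3, Ndufs5 and Uqcrb, and Sdhd in TAM minus Fibroblast, were chosen outside this rule with their values in view. Alternatives were other pseudocounts, filters, scalings, fits and transcripts, a term for the replicate number, and the fit without each library in turn.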

Additional observations from a re-analysis of the deposited data

How the results depend on the processing

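Of the 73 calls, 3 held without each library in turn and under every alternative, namely Ndufa4l2 in TAM minus Fibroblast and Fibroblast minus LLC and Cox4i2 in Fibroblast minus LLC, and 0 turned direction. Counts below are members called higher or lower. For each setting only the larger relative changes from the counts in the Results are listed. A direction not given had a count nearer to that in the Results. Percentages give the share of the members tested, then that of all genes in the same fit. With no filter they were 1 higher for TAM minus LLC, 2 higher and 2 lower for TAM minus Fibroblast, 5 lower for Fibroblast minus LLC, 2 lower for TAM minus Total tumor, and 1 higher and 6 lower for Fibroblast minus Total tumor. With a pseudocount of 5, 4 were higher (4.49%, against 16.8%) and 2 lower (2.25%, against 16.1%) for TAM minus Fibroblast. With 0.1, 2 were lower there (2.25%, against 17.5%) and 1 higher for TAM minus Total tumor (1.12%, against 9.19%). Without the variance trend 2 were lower for TAM minus Fibroblast (2.25%, against 17.2%). With upper-quartile rescaling 7 were higher for TAM minus LLC (7.87%, against 17.4%). For TAM minus Fibroblast 3 were higher (3.37%, against 14.1%) and 3 lower (3.37%, against 20.9%). For Fibroblast minus LLC 3 were lower (3.37%, against 11.1%). Against Total tumor, 2 were lower in TAM (2.25%, against 16.9%) and 5 in Fibroblast (5.62%, against 13.2%). With quantile normalization 10 were lower for TAM minus LLC (11.2%, against 20.7%) and 2 higher for TAM minus Total tumor (2.25%, against 15.7%). With the length correction TAM minus LLC had 10 higher (11.2%, against 21.0%) and 10 lower (11.2%, against 23.1%). TAM minus Fibroblast had 4 lower (4.49%, against 19.6%). Against Total tumor, 7 were higher in TAM (7.87%, against 20.2%) and 6 lower in Fibroblast (6.74%, against 17.7%). In a fit of only the groups compared, 11 were lower for TAM minus LLC, 44 higher and 2 lower for TAM minus Fibroblast, 42 lower for Fibroblast minus LLC, 0 lower for TAM minus Total tumor and 6 lower for Fibroblast minus Total tumor. The causes were not tested.

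With the replicate number as a block, 0 were higher for TAM minus LLC, 2 higher for TAM minus Fibroblast, 7 lower for Fibroblast minus LLC and 20 lower for Fibroblast minus Total tumor. The labels share only numbers between groups: correlations of the replicate deviations were 0.162 to 0.274 between the 3 sorted groups and -0.361 to -0.179 between Total tumor and each of them. The block ended the calls of Cox5a, Atp5sl, Cox4i2 and Cox6b2 in TAM minus LLC, those of Ndufb7, Ndufb8, Sdhd, Atp5sl and Cox7a1 in TAM minus Fibroblast, those of Atp5a1, Atp5f1, Sdha, Ndufa4 and Ndufs8 in Fibroblast minus LLC and those of Ndufv1 and Ndufab1 in TAM minus Total tumor. Without each library in turn, the ranges were 0 to 9 higher and 0 to 12 lower for TAM minus LLC, 0 to 49 and 1 to 4 for TAM minus Fibroblast, 2 to 3 and 0 to 43 for Fibroblast minus LLC, 0 to 5 and 0 to 50 for TAM minus Total tumor, 0 to 0 and 0 to 37 for LLC minus Total tumor, and 0 to 3 and 0 to 76 for Fibroblast minus Total tumor. The median of the members was 0.44, 0.40 and 0.39 for TAM minus Fibroblast with upper-quartile rescaling, quantile normalization and the length correction, and -0.17 for Fibroblast minus LLC with upper-quartile rescaling.

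The scalings were applied to the counts without overlap after the data were seen. Only the larger relative changes are listed here too. Each member count is followed by its share of the members, and each comparison by the share of all genes. With upper-quartile rescaling, 37 members (41.6%) lay above LLC in TAM (29.9%), 11 (12.4%) above and 38 (42.7%) below LLC in Fibroblast (34.8 and 38.3%), 5 (5.62%) above Total tumor in TAM (25.4%), 4 (4.49%) above it in LLC (17.1%) and 36 (40.4%) below it in Fibroblast (31.5%). With quantile normalization, 30 (33.7%) lay below LLC in TAM (42.2%), 6 (6.74%) above LLC in Fibroblast (29.7%), 5 (5.62%) above Total tumor in TAM (29.8%), and 6 (6.74%) above and 9 (10.1%) below it in LLC (22.6 and 14.4%). With the length correction, 12 (13.5%) lay below Fibroblast in TAM (34.1%), 8 (8.99%) above LLC in Fibroblast (33.5%), 23 (25.8%) above Total tumor in TAM (33.9%), 14 (15.7%) above and 3 (3.37%) below it in LLC (26.3 and 14.9%), and 8 (8.99%) above and 35 (39.3%) below it in Fibroblast (30.8 and 36.7%). Members with few reads, such as Cox6b2, and 2 libraries per group limit the precision.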

Other observations

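The gene lists outside the members were also counted against Total tumor. In Fibroblast, 14 of 18 tested genes of pyruvate dehydrogenase and the citric acid cycle were called lower than in Total tumor and 0 higher (77.8% lower, against 30.0% of all genes). The counts were 46 lower and 0 higher of 77 mitochondrial ribosomal proteins (59.7% lower) and 10 and 0 of 17 regulators of mitochondrial growth (58.8% lower). Near or below the share of all genes were further assembly factors and related proteins with 10 and 0 of 32 (31.2% lower), carriers and pores with 5 and 0 of 15 (33.3% lower), and fatty acid oxidation with 3 and 1 of 17 (17.6% lower). Mrps6, a protein of the small mitochondrial ribosome subunit, had 10.3 and 14.4 RPKM in Fibroblast, 13.7 and 20.7 in TAM, 124.3 and 77.4 in LLC and 100.8 and 175.6 in Total tumor. Slc25a13, an aspartate/glutamate carrier, had 0.434 and 0.543 RPKM in Fibroblast, 3.38 and 2.59 in TAM, 14.9 and 10.4 in LLC and 14.7 and 9.75 in Total tumor. For both genes, the Fibroblast and TAM libraries lay below those of LLC and Total tumor.

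In TAM minus Total tumor, where 23.9% of all genes were called lower, 13 ribosomal proteins (16.9%), 5 genes of the citric acid cycle list (27.8%) and 6 growth regulators (35.3%) were called lower, with 0 called higher in these 3 lists. The assembly factors had 0 higher and 2 lower, the carriers 1 and 2, and fatty acid oxidation 0 and 1. In LLC minus Total tumor, Ucp2 was the 1 gene called in the 6 lists, at 2.44 and 10.5 RPKM in LLC and 39.7 and 110.2 in Total tumor (-3.41, adjusted p = 0.0416, limma). The macrophage marker sum was 52.1 and 307.2 RPKM in LLC and 784.7 and 2649 in Total tumor, and its part in this difference was not tested.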
